A study of Sus scrofa with 21 samples.

Results

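Interferon response genes were followed through 21 RNA sequencing libraries from 3 pigs (Sus scrofa). The set was IFIT1, IFIT3, IRF7, MX1, MX2, ISG15, OAS2, RSAD2 and IFI44, chosen by gene symbol, and 8 of these 9 genes had a row in the table of 24358 genes. IFIT3 had no row under its symbol or identifier and was not analysed here. The series concerned endovascular sampling, in which a device advanced inside a vessel collects cells of its inner lining, the endothelium. Its groups were 10 libraries from a 3D-printed microbrush (5 from the kidney, 5 from the liver), 4 from a Nitinol wire without the brush (2 per organ) as the negative control, 4 from aorta removed at surgery as the positive control, and 3 from whole blood. The microbrush libraries came in equal number (5 each) from pig 243K and pig 248K, as did the wire libraries (2 each), and 2 of the 3 blood libraries were of pig 243K and the other of pig 248K. The 4 aorta libraries all came from pig 237053, so aorta and pig cannot be told apart. Breed, age and any treatment of the pigs are not given in the sources used here.

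Interferons are secreted proteins that cells release after sensing foreign nucleic acid. Type I interferons bind the receptor pair IFNAR1 and IFNAR2, the kinases JAK1 and TYK2 phosphorylate transcription factors of the STAT family, and these join IRF9 on the promoters of interferon-stimulated genes, whose products block viral entry, replication and translation. Circulating leukocytes carry these transcripts readily, and endothelial and smooth muscle cells can also be induced to make them.

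Sequencing depth, as summed estimated counts, was 1144932 to 10188552 per microbrush library, 1946286 to 11128400 per wire library and 1603229 to 3033008 per aorta library. Blood 2 held only 5634 counts over 302 genes, with 0 counts in each of the 8 genes. A count of 0 there allows up to 3 counts, or 532.5 CPM (a gene's counts rescaled so that each library has the same fixed total), and that library was left out of levels and comparisons unless stated. Genes with counts numbered 3831 in microbrush 4, 9715 in wire 2 and 10169 in wire 3, against 12653 to 20032 in the other 17 libraries besides blood 2. Levels below are CPM after TMM scaling over the 20 remaining libraries, with scaling factors from 0.468 (microbrush 6) to 2.135 (microbrush 3). Such scaling does not correct for gene length, so levels are compared between samples and not between genes. Smooth muscle genes summed to 24265 to 54317 CPM in aorta and 220.3 to 313 CPM in blood, and 10 endothelial genes to 179.9 to 232 CPM in aorta, 179.7 to 216 in blood, 271 to 1174 on the wire and 231 to 2165 on the microbrush. Libraries of one pig are not separate animals, and p-values measure the spread between libraries. In bulk RNA, fewer cells of a type and less RNA per cell cannot be told apart.

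On Sscrofa11.1, MX1 (chromosome 13, 204843049 to 204868927) and MX2 (chromosome 13, 204798633 to 204821612) are neighbouring copies of one gene family. Their estimated counts were not whole in 7 of 21 libraries each, so reads were divided between copies and the split between the pair is uncertain. IRF7 (chromosome 2, 372235 to 375572) had values that were not whole in 15 libraries and OAS2 (chromosome 14, 38827667 to 38847697) in 3. IFIT1 (chromosome 14, 101237403 to 101249486), ISG15 (chromosome 6, 63363201 to 63364211), IFI44 (chromosome 6, 134634679 to 134649857) and RSAD2 (chromosome 3, 128880853 to 128897809) had whole values throughout.

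ISG15, a ubiquitin-like protein that is attached to other proteins, lay at 505 CPM in blood 1 and 192 CPM in blood 3. The wires held 161, 92.1, 351 and 351 CPM in wires 1 to 4, and the aorta libraries 34.5, 17.2, 20.6 and 27.5 CPM in aorta 1 to 4. The microbrush libraries ran from 22.0 CPM (microbrush 7) over a median of 111.4 to 230.4 CPM (microbrush 6). All wires and 8 of 10 microbrush libraries lay above every aorta library, while wire and blood overlapped. Means ± SD were 349 ± 222 CPM in blood (n = 2), 239 ± 132 in wire (n = 4), 116.9 ± 75.0 in microbrush (n = 10) and 25.0 ± 7.64 in aorta (n = 4).

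IFIT1 binds viral RNA that lacks the cap modifications of host messenger RNA. Its level was 2964 CPM in blood 1 and 1027 CPM in blood 3. Wires 1 to 4 held 472, 484, 1224 and 420.4 CPM. Aorta 1 to 4 held 25.8, 41.9, 41.3 and 41.7 CPM. The microbrush libraries, from 58.5 CPM (microbrush 7) over a median of 183 to 829 CPM (microbrush 4), all lay above the aorta range and below both blood libraries, and wire 3 alone among the wires reached the blood range. Means ± SD were 1995 ± 1370 CPM in blood, 650.1 ± 383 in wire, 295 ± 273 in microbrush and 37.7 ± 7.92 in aorta.

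RSAD2, also called viperin, makes a nucleotide that ends viral RNA chains. It stood at 1068 CPM in blood 1 and 424 CPM in blood 3, and at 176, 206, 278 and 365 CPM in wires 1 to 4. Aorta 1 to 4 held 43.5, 54.8, 40.8 and 29.8 CPM, and the microbrush libraries ran from 38.1 CPM (microbrush 7) over a median of 99.0 to 449.7 CPM (microbrush 6). Every wire lay below both blood libraries and above every aorta library. Of the microbrush libraries, 9 of 10 lay above the aorta range. The group means were 746 ± 456 CPM in blood, 256 ± 84.1 in wire, 129 ± 116.4 in microbrush and 42.2 ± 10.3 in aorta.

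MX1 and MX2 encode dynamin-like GTPases that trap incoming viruses. MX1 stood at 779 CPM in blood 1 and 356 CPM in blood 3, at 146, 41.7, 255 and 328 CPM in wires 1 to 4, and at 30.3, 38.1, 37.6 and 71.9 CPM in aorta 1 to 4. Its microbrush libraries ran from 9.15 CPM (microbrush 3) over a median of 124 to 408 CPM (microbrush 6). Wire 2 and the aorta libraries overlapped, and microbrush 3 and 7 lay below every aorta library. MX2 stood at 975 and 414 CPM in blood 1 and 3, at 266, 31.7, 159 and 391 CPM in wires 1 to 4, and at 51.2, 54.1, 29.6 and 54.9 CPM in aorta 1 to 4. In the microbrush libraries MX2 ran from 31.3 CPM (microbrush 7) over a median of 86.6 to 467 CPM (microbrush 6). Wire 2, of pig 248K, was again inside the aorta range, and the other wires were above it. The means of MX1 were 568 ± 299 CPM in blood, 193 ± 126 in wire, 129 ± 118.5 in microbrush and 44.5 ± 18.6 in aorta, and those of MX2 were 695 ± 397, 212 ± 153, 115.9 ± 127 and 47.47 ± 11.996 CPM in the same order. The ratio of MX1 to MX2 counts was 0.799 and 0.861 in the blood libraries, but ran from 0.236 (microbrush 3) to 2.12 (microbrush 4) on the microbrush, from 0.548 to 1.61 on the wire and from 0.592 to 1.31 in aorta.

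OAS2 makes the oligoadenylates that switch on the antiviral nuclease RNase L. It stood at 774 CPM in blood 1 and 382 CPM in blood 3, and at 389.6, 460.2, 394 and 405 CPM in wires 1 to 4. Aorta 1 to 4 held 69.0, 69.0, 90.5 and 74.6 CPM, and the microbrush ran from 47.0 CPM (microbrush 7) over a median of 127 to 683 CPM (microbrush 6). All wires lay between the blood libraries and above every aorta library. The small spread between wires came with the scaling: unscaled, they held 337, 425, 189.9 and 362 CPM, all below both blood libraries at 581 and 505 CPM. The means were 578 ± 277 CPM in blood, 412 ± 32.6 in wire, 181 ± 192 in microbrush and 75.8 ± 10.2 in aorta.

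IFI44, whose protein lies in the cytoplasm, differed from the other members in the order of its levels. It stood at 152 and 55.4 CPM in blood 1 and 3, at 15.2, 35.0, 26.9 and 22.4 CPM in wires 1 to 4, and at 13.2, 12.5, 14.8 and 24.7 CPM in aorta 1 to 4. The microbrush libraries ran from 0 (microbrush 4) over a median of 15.0 to 29.7 CPM (microbrush 2). Both blood libraries stood above all others, while microbrush, wire and aorta overlapped. The microbrush mean of 16.1 ± 8.48 CPM was below the aorta mean of 16.3 ± 5.69 by less than either spread, with 24.9 ± 8.29 in wire and 103.6 ± 68.2 in blood.

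IRF7, the transcription factor that drives the later wave of type I interferon genes, stood at 210.1 CPM in blood 1 and 114.5 CPM in blood 3. It stood at 91.5, 24.2, 64.7 and 141 CPM in wires 1 to 4, and the aorta libraries held 1.05, 5.03, 0 and 4.58 CPM. The count of 0 in aorta 3 allows up to 1.87 unscaled CPM. On the microbrush it ran from 1.86 CPM (microbrush 7) over a median of 26.9 to 170.4 CPM (microbrush 6), and 8 of 10 libraries lay above every aorta library. The means were 162 ± 67.6 CPM in blood, 80.3 ± 48.9 in wire, 42.6 ± 50.2 in microbrush and 2.66 ± 2.51 in aorta.

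**Figure D1:**
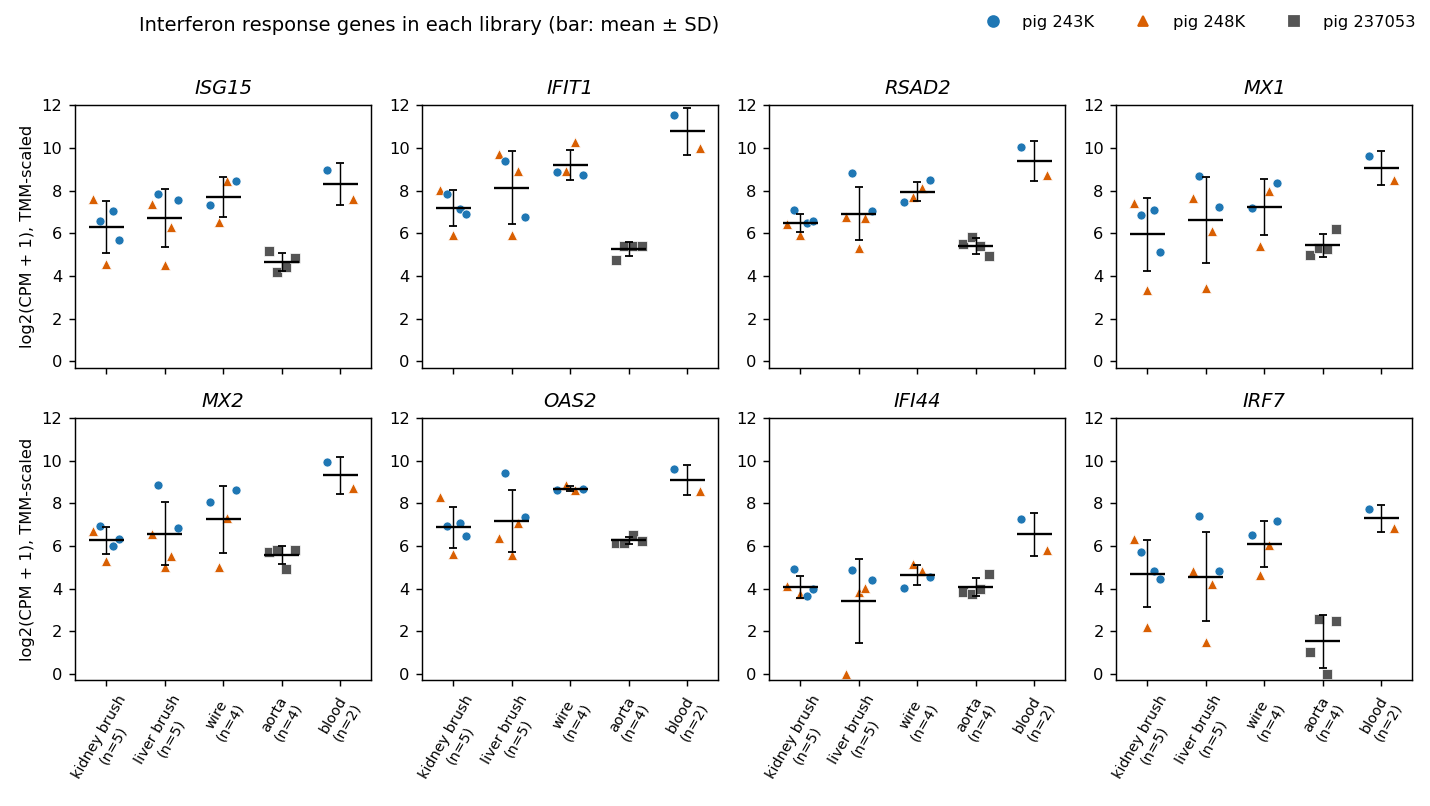
Level of each interferon gene in every library with at least 100000 counts, as log2(CPM + 1) after TMM scaling, by sample kind and, for the microbrush, by organ. Symbols mark the pig, the horizontal bar is the group mean and the vertical bar its SD. Blood is highest and aorta lowest for 7 of the 8 genes by mean level.

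The order of the means was blood, wire, microbrush, aorta in 7 of the 8 genes, and blood, wire, aorta, microbrush in IFI44. Relative to the blood mean, the summed level of the 8 genes was 39.8% on the wire, 19.8% on the microbrush and 5.61% in aorta. A list of 10 leukocyte genes (PTPRC, CD53, LCP1, CORO1A, LAPTM5, ARHGDIB, CYTIP, RAC2, WAS and DOCK2) stood at 32.8%, 17.2% and 3.92% of its blood mean in the same groups. Lists of single white cell types stood elsewhere on wire, microbrush and aorta: monocyte and macrophage genes at 68.3%, 64.8% and 62.2% of their blood mean, neutrophil genes at 69.5%, 38.9% and 28.2%, B cell genes at 42.9%, 33.2% and 22.7%, and T and NK cell genes at 23.1%, 18.3% and 15.8%. The part of any of these in the levels of the interferon genes was not tested. Without the TMM factors, 10 of 10 microbrush libraries lay below both blood libraries in each of the 8 genes, and so did 4 of 4 wires in all but ISG15, where 3 did. The share of all genes that lay so was not counted, with or without the factors, nor the share above every aorta library. These counts, and those given per gene above, are thus not set apart from the rest of the table.

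Aorta and whole blood were compared first, as vessel tissue and the fluid inside vessels, though they came from different pigs. All 8 interferon genes were lower in aorta. For IFIT1 the fitted level was 56.3-fold lower (log2 fold change -5.81, SE 0.65, edgeR adjusted p = 5.39e-17), and for IRF7 it was 59.0-fold lower (-5.88, SE 0.50, adjusted p = 3.46e-29). The smallest difference was that of IFI44 at 6.79-fold (-2.76, SE 0.42, adjusted p = 1.12e-09). ISG15, RSAD2, MX1, MX2 and OAS2 lay between, from -3.01 for OAS2 to -4.22 for RSAD2, and in each gene the aorta and blood libraries did not overlap. How many of all genes separate in this way was not counted. Of all 17082 genes tested, 28.5% were called, 9.82% higher in aorta and 18.7% higher in blood. The members' median was -3.92, and that of all genes tested 0.15. With blood 2 in the fit, 1 of the 8 genes passed (IRF7) and 239 genes in all, against 4875 without it, and in a common fit of all groups 5 of the 8 and 127 genes passed. The leukocyte list was lower in aorta in 10 of 10 members, with a median of -4.31.

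Wire and aorta were compared next, the negative control against the positive control. IFIT1, IRF7, ISG15, OAS2 and RSAD2 were higher on the wire, 5 of 8, beside 3.57% of all 15313 genes called and 2.80% called higher on the wire. The log2 fold changes were 5.01 for IRF7 (SE 0.98, edgeR adjusted p = 0.0183), 4.42 for IFIT1 (SE 0.63, adjusted p = 0.00588), 3.49 for ISG15 (SE 0.58, adjusted p = 0.00949), 2.81 for RSAD2 (SE 0.46, adjusted p = 0.00892) and 2.66 for OAS2 (SE 0.43, adjusted p = 0.00822). MX1 (2.33, SE 0.62, adjusted p = 0.0727), MX2 (2.30, SE 0.63, adjusted p = 0.0794) and IFI44 (0.85, SE 0.78, adjusted p = 0.843) did not pass. The members' median was 2.74 and that of all genes tested -0.29. Without aorta 1 or without aorta 2, 0 members passed in edgeR, with 7 of 8 at an unadjusted p under 0.05 in both cases and a lowest adjusted p of 0.0536 and 0.0513, while the members' median stayed at 2.67 and 2.75. Then 76 and 62 genes passed in all. Without aorta 3, 5 members passed, and without aorta 4, 4 did, with 203 and 211 genes in all. Without wires 2 and 3, the wires with the fewest genes, 7 members passed, all but IFI44, beside 1411 genes or 8.47% of those tested. Of the leukocyte genes 10 of 10 were positive and 7 passed, with a median of 2.98, and of the platelet genes 6 of 6 were positive and 4 passed. Erythroid genes had a median of 4.55, B cell genes 1.40 and endothelial genes 0.95, while smooth muscle genes had -3.64 and matrix genes -2.78. The medians of neutrophil (0.62), T and NK cell (0.18) and monocyte and macrophage genes (-0.03) lay closer to 0.

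Between microbrush and aorta no interferon gene passed. All 8 log2 fold changes were positive, with a median of 1.80 beside -0.17 for all genes tested. The greatest were those of IRF7 (4.18, SE 1.21, edgeR adjusted p = 0.261), IFIT1 (3.19, SE 0.96, adjusted p = 0.274) and ISG15 (2.38, SE 0.81, adjusted p = 0.412). IFI44 stood at 0.10 (SE 0.86), which became -0.24 under RLE scaling. Of all 16776 genes, 0.125% were called, 0.0596% higher on the microbrush and 0.0656% higher in aorta, and 4 of the 8 members had an unadjusted p under 0.05. DESeq2 called IRF7, IFIT1 and ISG15, beside 1.26% of all genes, and limma voom called IFIT1, beside 4.48%. The members' median was 1.15 under RLE scaling and by DESeq2 and 0.54 by limma voom, with 7 of 8 positive in each. The brush libraries differed widely among themselves: summed over the 8 genes, they ran from 222 CPM in microbrush 7 to 3105 CPM in microbrush 6, where aorta had 269 to 329.6 CPM and blood 2964 and 7429 CPM. Unscaled, microbrush 7 was again below every aorta library, at 238 against 290.1 to 403 CPM, but microbrush 3 was at 541 and not below them, and microbrush 6 was at 1454, below blood 3 at 3918 CPM.

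Microbrush and blood gave negative values for all 8 genes, with a median of -1.88 beside 0.13 for all genes tested, and 0 passed. Beside this, 0.0168% of 17832 genes were called, all higher in blood. IFI44 had -2.35 (SE 1.03), IFIT1 -2.31 (SE 0.99), MX2 -2.10 (SE 0.94) and RSAD2 -2.07 (SE 0.92), each with an edgeR adjusted p of 0.99998 and an unadjusted p under 0.05. Limma voom called IFI44, MX2 and RSAD2 lower on the microbrush, beside 5.93% of all genes, with a members' median of -3.14. Without blood 1 the median was -1.20 with 0 members at an unadjusted p under 0.05, and without blood 3 it was -2.83. IFIT1 and IFI44 lay below both blood libraries in 10 of 10 microbrush libraries, and the other 6 genes in 8 or 9 of 10. Microbrush 6 was the exception in those 6 genes, joined by microbrush 1 for ISG15, and both only with the TMM factors. The share of all genes with such a separation from blood was not counted.

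Wire and blood differed by less, with 0 of 8 passing and 0.0486% of 16461 genes called. The median was -1.35, beside -0.34 for all genes tested. MX2 (-1.55, SE 0.74) and IFI44 (-1.83, SE 0.89) had an unadjusted p under 0.05, and both had an edgeR adjusted p of 1. ISG15 (-0.34, SE 0.72) and OAS2 (-0.27, SE 0.72) stood closest to blood, and their sign turned under RLE scaling to 0.19 and 0.25. With the pig as a block 17 genes passed in place of 8, still with 0 of the 8 members. Limma voom called IFIT1 lower on the wire, beside 2.21% of all genes. Without blood 1 the members' median was -0.58.

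**Figure D2:**
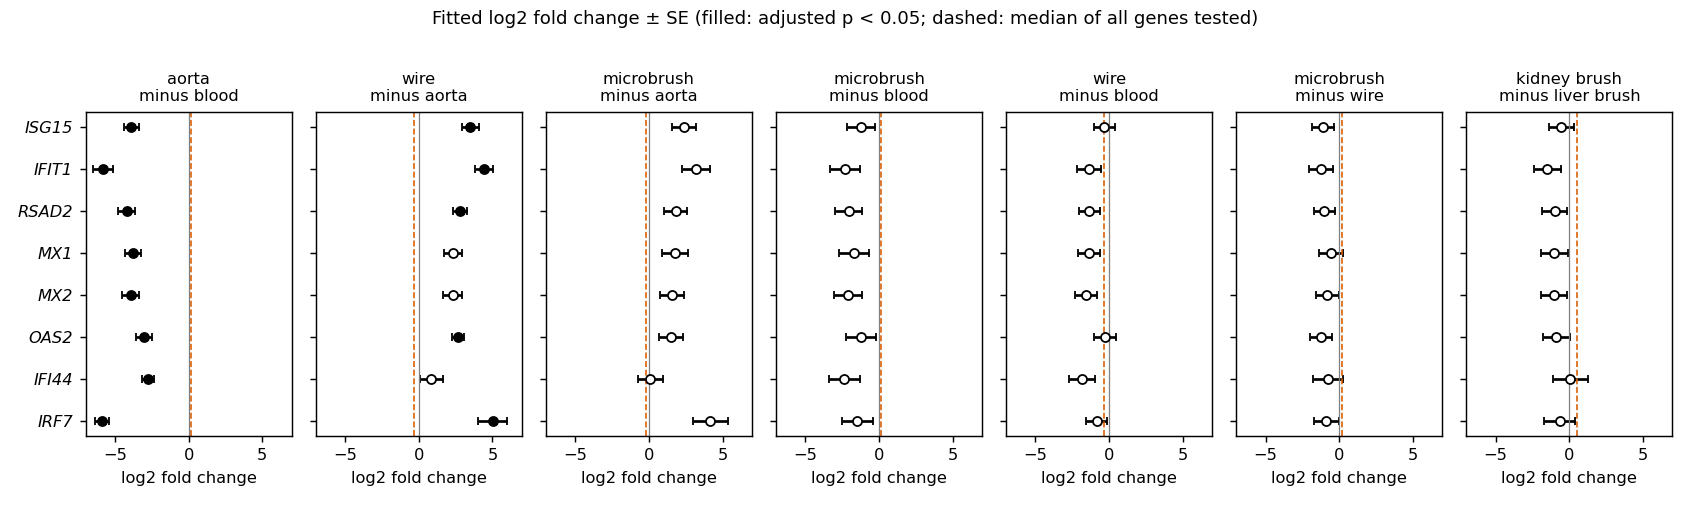
Fitted log2 fold change of each interferon gene in 7 comparisons, with its SE as a horizontal bar. Filled points passed at an adjusted p under 0.05, the grey line marks 0 and the dashed line the median of all genes tested in that comparison. Filled points occur in aorta minus blood (8 of 8) and wire minus aorta (5 of 8).

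The microbrush and the bare wire were set against each other to ask what the brush adds. All 8 genes were lower on average on the brush, but 0 passed, and 0% of 16439 genes were called by edgeR, with 518 at an unadjusted p under 0.05. The largest differences were those of IFIT1 (-1.23, SE 0.81), OAS2 (-1.23, SE 0.76), ISG15 (-1.10, SE 0.74) and RSAD2 (-1.004, SE 0.73). Each had an edgeR adjusted p of 0.9998. With the TMM factors, 9 of 10 brush libraries lay below every wire for OAS2 and RSAD2, microbrush 6 being the tenth. Unscaled, RSAD2 in microbrush 2 (206 CPM) and microbrush 10 (183 CPM) was also above wire 3 (134 CPM). How many of all genes show such a separation was not counted. The median of -0.94, beside 0.17 for all genes, was -0.42 in pig 243K alone and -1.31 in pig 248K alone, -1.21 in kidney alone and -0.62 in liver alone. By limma voom it was -2.39, with 5 of 8 members at an unadjusted p under 0.05 and 0 passing. DESeq2 called 96 genes higher on the brush and 5 higher on the wire, with 0 of the 8 members. Leukocyte genes were negative in 10 of 10, with a median of -1.10 and none called. The difference between brush and wire was itself tested between organs and between pigs, and 0 of the 8 genes passed either interaction, where 0% of 17809 genes were called by edgeR, with 525 genes at an unadjusted p under 0.05 between organs, 3478 between pigs and 0 members in both. Without microbrush 4 the test between pigs called 576 genes and 0 members.

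Kidney and liver microbrush libraries were compared in the 5 libraries of each organ. In kidney, IFIT1 stood at 261, 229, 59.7, 138 and 118.2 CPM in microbrush 1, 2, 3, 5 and 10. In liver it stood at 829, 668, 58.5, 487 and 107.7 CPM in microbrush 4, 6, 7, 8 and 9. The kidney values lay inside the liver range. The log2 fold change of IFIT1, kidney minus liver, was -1.48 (SE 0.90, edgeR adjusted p = 0.9998), and 0 of 8 genes passed. Of 15013 genes, 0% were called by edgeR, and 238 had an unadjusted p under 0.05. Negative values were found for 7 of the 8 genes, with a median of -0.93, while the median of all genes was 0.50. That direction depended on the pig and on a single library: the median was -1.94 in pig 243K alone, 0.32 in pig 248K alone and -0.06 without microbrush 6, and it was 0.64 by limma voom. Platelet genes had a median of -2.21 and endothelial genes -0.72 in the same comparison, and their part in the interferon genes was not tested.

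The pathway around the 8 genes was read from further lists. Of 23 interferon ligands listed, 4 had a row. Symbols were not matched for every gene, so a missing row does not show that a ligand was absent. Over all libraries IFNG had 1224 counts in 17 libraries, IFNK 279 in 15, IFNB1 134 in 14 and IFNE 54 in 11. IFNG averaged 16.6 ± 13.4 CPM on the microbrush, 32.5 ± 29.0 on the wire, 26.2 ± 8.11 in aorta and 17.7 ± 11.2 in blood. The most in any library was 179 counts of IFNG, the interferon of T and NK cells, in wire 1. None of the ligands tested passed in any of the 7 comparisons. Counts of genes that passed in these lists stand beside 18.7% of all genes called higher in blood than in aorta and 2.80% called higher on the wire than in aorta. Of receptors and signalling genes, 9 of 11 were negative in aorta minus blood and 7 passed, among them the receptor subunit IFNAR1 (-3.27, adjusted p = 3.71e-12), JAK1 (-3.17, adjusted p = 3.35e-08) and STAT2 (-2.45, adjusted p = 7.28e-06), all by edgeR. Between wire and aorta 0 of 11 passed in edgeR, with 4 at an unadjusted p under 0.05, among them JAK1 at 2.05 (edgeR adjusted p = 0.0794).

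Of the sensors of foreign nucleic acid and their adaptors, 14 of 18 were negative in aorta minus blood and 8 passed. CGAS, the sensor of cytosolic DNA, had -3.44, IFIH1, a sensor of long double-stranded RNA also called MDA5, -3.52, and ZBP1, a sensor of Z-form nucleic acid, -2.97. On the wire ZBP1 (3.18, edgeR adjusted p = 0.0068) and UNC93B1 (2.64, adjusted p = 0.0111), which carries nucleic acid Toll-like receptors to endosomes, passed above aorta, 2 of 18, with 9 positive. Of other type I effectors, 29 of 31 were negative in aorta minus blood and 28 passed. EPSTI1 (-5.27), the exonuclease ISG20 (-5.24), the helicase DDX60 (-4.49) and DTX3L (-4.42), a ubiquitin ligase, had the smallest p-values. In wire minus aorta 28 of 30 were positive and 8 passed, led by PARP14 (3.61, edgeR adjusted p = 0.0052), HERC6 (3.11, adjusted p = 0.00596), IFIT2 (3.83, adjusted p = 0.00898) and SAMD9 (3.76, adjusted p = 0.00917).

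Genes that also answer interferon gamma or process antigen were negative in aorta minus blood in 14 of 15, and 13 passed, such as IRF1 (-3.89), GBP2 (-3.87), the immunoproteasome subunit PSMB8 (-3.64) and the peptide transporter TAP1 (-3.62). In wire minus aorta 14 of 14 were positive and 5 passed, with NLRC5, which drives class I genes, at 3.48 (edgeR adjusted p = 0.0052) and TAP2 at 3.23 (adjusted p = 0.00581). Of the negative regulators, a list that also holds ISG15, 6 of 6 were negative in aorta minus blood and 5 passed, including USP18, which removes ISG15 from proteins and blocks IFNAR2 (-2.15), and SOCS3, a JAK inhibitor (-2.28). In wire minus aorta 4 of 6 were positive and 2 passed, SOCS3 (2.17, edgeR adjusted p = 0.0478) and ISG15 itself. In the comparisons of the microbrush with wire, blood and aorta, and of kidney with liver brushes, 0 genes of these lists passed in edgeR.

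**Figure D3:**
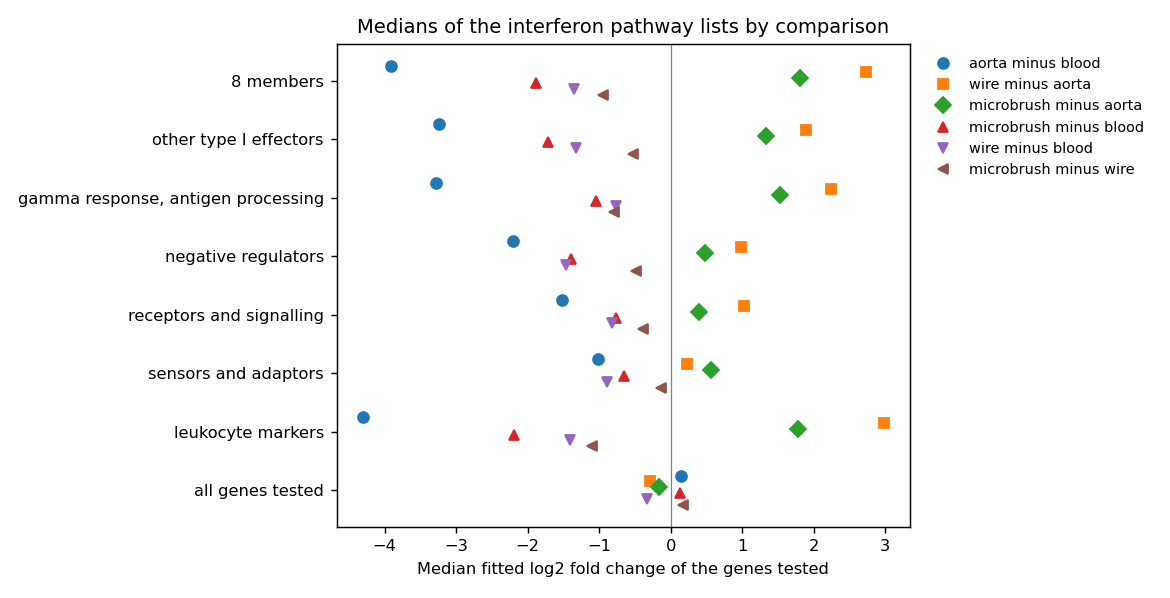
Median fitted log2 fold change of the 8 interferon genes, 5 further interferon lists, the leukocyte list and all genes tested, in 6 comparisons that share libraries with each other. The members' median runs from -3.92 (aorta minus blood) to 2.74 (wire minus aorta), next to -4.31 and 2.98 for the leukocyte list.

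Interferon and leukocyte genes were set beside each other within each library. The ratio of summed CPM of the 8 interferon genes to that of the 10 leukocyte genes does not depend on the scaling. It was 0.810 in blood 1 and 0.733 in blood 3, and from 0.988 to 1.49 in the 4 aorta libraries. In the 7 brush and wire libraries of pig 243K it ran from 0.952 over a median of 1.44 to 4.33, and in the 7 of pig 248K from 0.412 over a median of 0.652 to 0.858. The pigs did not overlap. Wires 1 and 4, of pig 243K, had 1.45 and 1.46, and wires 2 and 3, of pig 248K, 0.704 and 0.712, whereas the blood libraries of the pigs lay close together.

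A fit of all brush and wire libraries with device and pig, chosen after these values were seen, called 0% of 16439 genes between the pigs, with 358 at an unadjusted p under 0.05. In pig 243K minus pig 248K, 7 of 8 interferon genes were positive with a median of 0.74, and 0 of 10 leukocyte genes were, with a median of -0.79. The median of all genes was 0.44. MX2 had 1.51 (SE 0.72, unadjusted p = 0.0423, edgeR adjusted p = 0.99995) and IFIT1 was the exception with -0.65 (SE 0.80). Wires 2 and 3 and microbrush 4, which had the fewest genes, were all of pig 248K, so pig and these libraries cannot be told apart in part of the values. Without microbrush 4 the members' median was 0.79.

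Microbrush 9, a liver brush of pig 243K, stood apart with the ratio of 4.33. Its leukocyte genes summed to 208 CPM, below every other library, where the aorta libraries had 221 to 296 CPM. Its neutrophil list summed to 5.57 CPM and its platelet list to 15.7 CPM, the lowest of the 20 libraries. Its 8 interferon genes summed to 899 CPM, against 269 to 330 CPM in aorta. MX1 stood at 150.3, ISG15 at 186, IRF7 at 27.5 and OAS2 at 164 CPM, each above all aorta libraries. Smooth muscle genes summed to 94971 CPM and matrix genes to 66474 CPM in that library, where aorta had 24265 to 54317 and 2941 to 8240 CPM. Endothelial genes summed to 603 CPM there, against 179.9 to 232 CPM in aorta. The part of any of these in its interferon genes was not tested. PTPRC, the CD45 antigen of leukocytes, was at 52.6 CPM there and at 39.4 to 73.8 CPM in aorta.

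**Figure D4:**
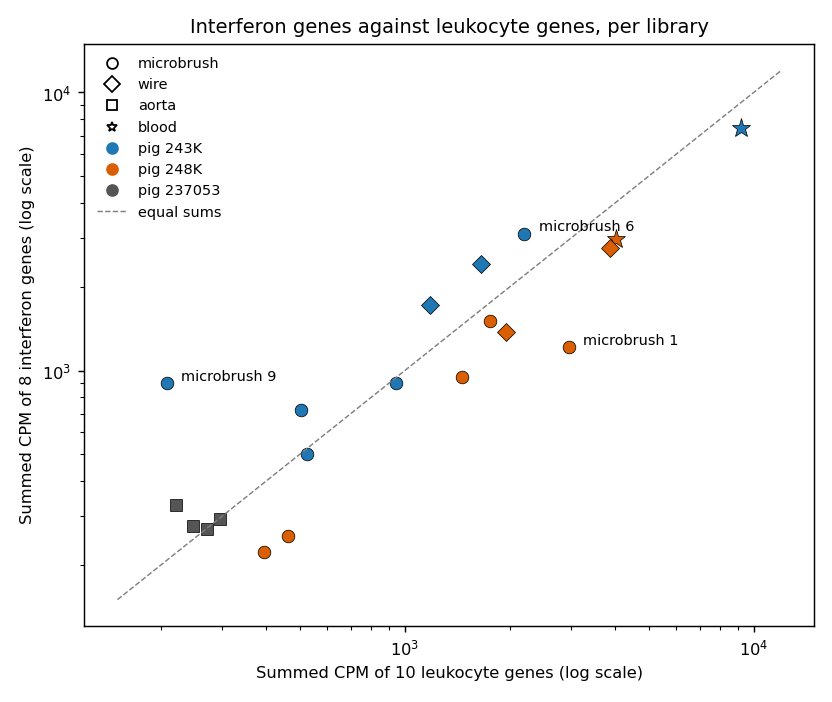
Summed CPM of the 8 interferon genes against summed CPM of the 10 leukocyte genes in each of 20 libraries, both on log axes. Shape marks the sample kind, colour the pig, and the dashed line equal sums. All brush and wire libraries of pig 248K lie below the line. So do both blood libraries, aorta 1 and aorta 2, and microbrush 2 and microbrush 10 of pig 243K. Microbrush 9 lies farthest above the line, at a ratio of 4.33.

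The make-up of the signal within the set also differed between samples. IFIT1 supplied 39.9% and 34.6% of the summed CPM of the 8 genes in blood 1 and 3, and 9.60%, 14.3%, 15.0% and 12.6% in aorta 1 to 4. The wires, at 17.3% to 44.5%, and the microbrush libraries, at 11.98% to 55.2%, covered the range between and beyond. The highest share was 55.2% in microbrush 4 (Wilson 95% interval 53.7% to 56.7%), followed by 51.3% in microbrush 8 (49.0% to 53.6%). The lowest on the brush was 11.98% in microbrush 9 (11.15% to 12.9%), inside the aorta range. OAS2 supplied 22.6% to 32.9% in aorta and 10.4% and 12.9% in blood, and IFI44 4.26% to 7.50% in aorta and 1.87% and 2.04% in blood. In both genes the aorta and blood shares did not overlap. Intervals cover counting error only.

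**Figure D5:**
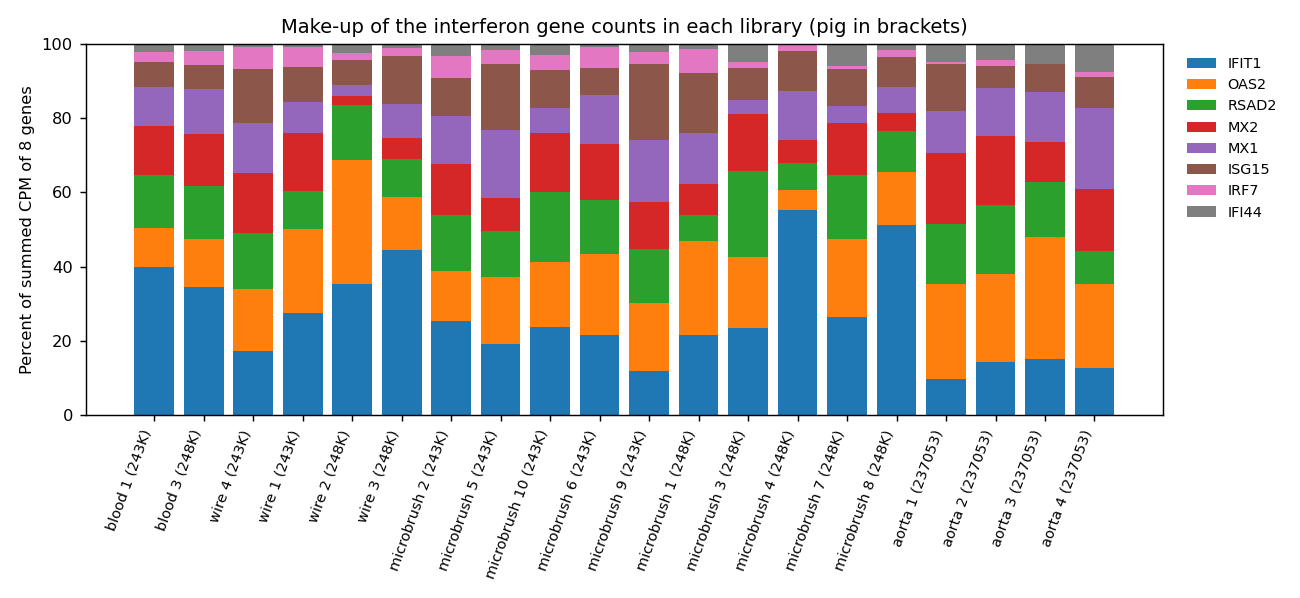
Percent of the summed CPM of the 8 interferon genes that each gene supplied, in 20 libraries ordered by sample kind and pig. IFIT1 fills 34.6% and 39.9% of the blood bars and 9.60% to 15.0% of the aorta bars.

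As a description of how the genes moved together, log2(CPM + 1) of each gene was correlated with the mean of the other members over the 10 microbrush libraries, which come from 2 pigs and share their scaling. Pearson's r was 0.96 for IRF7, 0.93 for OAS2, 0.90 for MX1, 0.89 for MX2 and RSAD2, 0.87 for ISG15 and 0.63 for IFIT1. IFI44 had 0.061, which rested on microbrush 4, where it was at 0: over the other 9 libraries r was 0.70 for IFI44 and 0.80 for IFIT1. Among 11825 genes with a mean of at least 5 CPM, those whose pattern over the 20 libraries was close to the members' mean included ZNFX1 (r = 0.971), PARP14 (0.959), RIGI (0.955) and HERC6 (0.953). Over the microbrush libraries alone these had 0.965, 0.899, 0.950 and 0.961. ZNFX1 averaged 1787 ± 857 CPM in blood, 525 ± 286 on the wire, 354 ± 307 on the microbrush and 128 ± 34.4 in aorta.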

How the data were processed

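The table analysed held estimated counts per Ensembl gene, merged over the samples and deposited by the authors without scaling between libraries. Salmon, DESeq2 and the build Sscrofa11.1 are named in the submitters' processing notes, and SMARTer Pico was the library kit, per the labels' protocols. Fractional values made up 11.9% and were rounded before testing. Symbols were matched for 14692 of 24358 genes through a list of gene names, and coordinates were taken by symbol from RefSeq genes of the same build.

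The members and gene lists were chosen with earlier results of these data known. Only the libraries of a comparison entered its fit by edgeR 4.0.16, run under R 4.3.3 (filterByExpr with a minimum count of 10, TMM, robust quasi-likelihood test, Benjamini-Hochberg over all genes, adjusted p under 0.05). The 8 members passed that filter in every comparison. Libraries under 100000 counts were left out, which removed blood 2. Fold changes use the scaling of their own comparison, and levels that over 20 libraries. Genes named beyond the members are up to 4 per list and comparison with the smallest p among those that passed, or the 2 with the smallest p where none did, not all of which are printed. The 5 genes closest to the members were ranked by Pearson's r with a pseudocount of 1, and 1 of them is not reported here.

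Alternatives were RLE scaling, no filter, DESeq2 1.42.0, limma 3.58.1 voom with quality weights, a common fit, blood 2 included, libraries left out in turn, and each pig and organ alone. Microbrush, wire and blood libraries that share a pig come from the same animal per the labels, so the pig was also fitted as a block. The fits without wires 2 and 3, the alternatives of the interaction tests, the unscaled levels, the likeness without microbrush 4 and the comparison of the pigs were chosen after seeing the data. No 2 libraries of a group were copies (lowest chi-square per degree of freedom 6.28). The fit was also run on simulated counts that had the same spread in every gene and group. That run does not bear on how the fit performs with the unequal libraries here.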

Additional observations from a re-analysis of the deposited data

Results flagged for a closer look

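In 45 groups of 4 to 10 libraries, a single library lay farther from the rest than Dixon's 95% limit in 15 cases. These are not separate cases, since the brush groups contain each other and the genes of a library share its scaling. A rate of 1 in 20 holds only for separate groups with a normal spread, so the 15 cannot be set against it. Microbrush 6, a liver brush of pig 243K, accounted for 9 of the 15 cases. It stood above the other microbrush libraries in IRF7 (170.4 CPM, next 78.5), MX1 (408 CPM, next 199), MX2 (467 CPM, next 123), OAS2 (683 CPM, next 308) and RSAD2 (449.7 CPM, next 135), and above the other liver brushes alone in IRF7, MX2, OAS2 and RSAD2. Its scaling factor was the lowest of all, 0.468. In unscaled CPM it had 79.8 for IRF7, 191 for MX1, 219 for MX2 and 210.5 for RSAD2, next to 79.6, 177, 188 and 206 in microbrush 2, and for MX1 microbrush 4 was higher, at 231. Its unscaled OAS2 was 319.9 CPM, next to 185 in microbrush 2. It also held the highest sums of endothelial genes (2165 CPM) and platelet genes (9423 CPM) among the 20 libraries. The part of either in its interferon genes was not tested.

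Microbrush 9 stood above the other microbrush libraries, and above the other liver brushes alone, in the ratio of interferon to leukocyte genes, at 4.33 against at most 1.44 and 1.41. IFIT1 in wire 3 was 1224 CPM, where the other wires had 420.4 to 484. Unscaled, that library had 589 CPM and the others 376 to 447. IFIT1 in aorta 1 was 25.8 CPM, below 41.3 to 41.9 in the other aorta libraries, and MX2 in aorta 3 was 29.6 CPM, below 51.2 to 54.9. IFI44 in microbrush 2 was 29.7 CPM, above 11.5 to 16.2 in the other kidney brushes.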

How the results depend on the processing

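Over all alternatives, 682 member fold changes kept their direction and their side of the threshold, 17 newly passed, 23 no longer passed and 35 changed sign. Where a value moved, the cause was not tested. IRF7 in aorta rested on few estimated counts, from 0 in aorta 3 to 20.7 in aorta 2. The count of 0 for IFI44 in microbrush 4, a library of 2428828 counts over 3831 genes, allows up to 1.235 unscaled CPM.

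For aorta against blood, 4875 genes and 8 members passed, against 127 and 5 in the common fit and 239 and 1 with blood 2. Without single libraries 2488 to 6990 genes passed. For wire against aorta, 546 genes and 5 members passed, against 1116 genes by DESeq2, 842 by voom, 200 (3 members) in the common fit, 1411 without wires 2 and 3, and 62 to 1515 genes with 0 to 7 members without single libraries. For microbrush against aorta, 21 genes passed, against 39 without the filter, 211 by DESeq2 (3 members), 752 by voom (1 member), 55 in the common fit, 36 without microbrush 4 and 7 to 12 without single aorta libraries. There IFI44 turned to -0.24 under RLE and DESeq2, -0.011 without the filter and -0.0168 in the common fit, and MX1 to -0.40 by voom.

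For microbrush against blood, 3 genes passed, against 0 under RLE, 14 without the filter, 303 by DESeq2, 1057 by voom (3 members), 24 in the common fit, 0 without microbrush 4 and 0 to 5 without single blood libraries. With the pig as replicate block 4 genes passed. For wire against blood, 8 genes passed, against 3 under RLE, 5 without the filter, 246 by DESeq2, 364 by voom (1 member), 0 in the common fit, 0 with blood 2, 818 without wires 2 and 3 (1 member), 0 to 24 without single libraries and 17 with the pig as replicate block. ISG15 there turned to 0.19 under RLE and DESeq2, 0.0585 without the filter, 0.41 without blood 1 (-0.71 at the other end, without wire 3) and 0.36 with blood 2. OAS2 turned to 0.25 under RLE and DESeq2, 0.0164 without the filter, 0.22 without blood 1 (-0.50 without blood 3) and 0.44 with blood 2.

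For microbrush against wire, 0 genes passed, against 96 higher on the brush and 5 on the wire by DESeq2, and 42 and 4 in pig 248K alone, and IFI44 was 0.38 in pig 243K alone. The test of device by pig called 576 genes without microbrush 4, against 0. For kidney against liver brushes, 0 genes passed, against 1 without the filter, 66 by DESeq2 and 901 in pig 243K alone. By voom IRF7 turned to 2.18, MX1 to 1.11, MX2 to 1.09, ISG15 to 0.65, RSAD2 to 0.64 and OAS2 to 0.30. Without single libraries IRF7 ran from -1.22 (without microbrush 7) to 0.77, MX2 from -1.57 (without microbrush 7) to 0.0305 and OAS2 from -1.38 (without microbrush 1) to 0.25, each highest without microbrush 6. In pig 248K alone IRF7 was 1.41, OAS2 1.02, ISG15 0.33 and MX2 0.31. IFI44 turned to -0.26 without microbrush 4, -0.16 without microbrush 7, -0.37 without microbrush 2 (0.48 without microbrush 6), -0.0563 with the pig as replicate block and -0.70 in pig 243K alone. The replicate block changed the call of no member.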
